A study of Mus musculus with 2 samples.

Results

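Cycling plasmablasts were the antibody-secreting cells of the mouse omentum that carried transcripts of cell division. They were selected on measured values, by 1 rule in both libraries: 200 to 7500 genes detected, at least 50 *Jchain* unique molecular identifiers (UMIs, each marking 1 captured transcript) per 10000 UMIs of the cell, *Xbp1* and *Mzb1* above 0, and at least 2 of *Mki67*, *Top2a*, *Ube2c* and *Birc5* above 0. This gave 62 of 8680 cells in the WT library and 313 of 5734 in the *Postn*-DTR library, 375 of 14414 in all. The cells that met the *Jchain*, *Xbp1* and *Mzb1* conditions are called gate cells below (593 WT and 2047 *Postn*-DTR), and those with fewer than 2 of the cycle genes are called other gate cells (531 and 1734). The study asked what the *Aldh1a2*+ fibroblastic reticular cells of omental milky spots do for the lymphoid cells around them. *Postn*-DTR mice were heterozygous for a diphtheria toxin receptor inserted into *Postn*, so that the *Postn* promoter drove it. WT mice, littermates where feasible, lacked it, mice of both groups received diphtheria toxin (DT), and omenta were collected 5 days later. The sources used here give neither age nor sex, and *Postn* is also active in other mesenchymal cells, so the ablation is not limited by design to 1 cell type. Each group was 1 library, the mice inside a library cannot be told apart, and no test or p-value was computed. Intervals are 95%, treat cells as independent and cover counting error only.

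Plasmablasts are the dividing stage between an activated B cell and a plasma cell. They have begun to make antibody in bulk, with the immunoglobulin chains, the J chain that joins IgM and IgA polymers, and an enlarged endoplasmic reticulum, and they lose the B cell program as division ends. In the omentum and the peritoneal cavity many antibody-secreting cells arise from B1 cells, which make natural IgM from a small set of recurrent V segments.

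The promoters of the 4 cycle genes of the rule are shown because their letters differ in what they share with the other cycle genes measured here. Each runs from 250 bases before to 50 bases after the start of transcription (RefSeq, GRCm38.p6). Capitals mark CCAAT or its reverse complement ATTGG, which the factor NF-Y is known to bind, and TTTGAA or TTCAAA, a form of the cell cycle homology region, the element at which the DREAM complex is known to hold cell cycle genes in check.

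Mki67 promoter, chr7:135716330-135716629, minus strand: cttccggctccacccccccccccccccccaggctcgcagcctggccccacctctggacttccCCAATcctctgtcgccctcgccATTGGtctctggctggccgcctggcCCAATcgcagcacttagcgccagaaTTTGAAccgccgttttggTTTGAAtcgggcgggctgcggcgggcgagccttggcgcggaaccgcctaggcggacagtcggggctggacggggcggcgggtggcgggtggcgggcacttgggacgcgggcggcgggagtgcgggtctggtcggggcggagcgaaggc
Top2a promoter, chr11:99024140-99024439, minus strand: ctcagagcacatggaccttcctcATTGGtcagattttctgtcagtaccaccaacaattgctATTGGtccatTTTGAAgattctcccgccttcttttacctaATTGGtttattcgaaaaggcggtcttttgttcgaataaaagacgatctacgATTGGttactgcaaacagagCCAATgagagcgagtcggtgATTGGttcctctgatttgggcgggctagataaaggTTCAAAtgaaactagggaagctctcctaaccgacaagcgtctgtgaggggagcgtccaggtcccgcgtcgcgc
Ube2c promoter, chr2:164769679-164769978, plus strand: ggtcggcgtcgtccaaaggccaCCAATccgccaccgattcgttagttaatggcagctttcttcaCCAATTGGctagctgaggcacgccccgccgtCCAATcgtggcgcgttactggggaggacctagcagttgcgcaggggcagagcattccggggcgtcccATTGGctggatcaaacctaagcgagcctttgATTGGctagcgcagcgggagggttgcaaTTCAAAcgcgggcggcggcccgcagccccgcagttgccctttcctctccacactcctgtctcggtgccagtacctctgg
Birc5 promoter, chr11:117848987-117849286, plus strand: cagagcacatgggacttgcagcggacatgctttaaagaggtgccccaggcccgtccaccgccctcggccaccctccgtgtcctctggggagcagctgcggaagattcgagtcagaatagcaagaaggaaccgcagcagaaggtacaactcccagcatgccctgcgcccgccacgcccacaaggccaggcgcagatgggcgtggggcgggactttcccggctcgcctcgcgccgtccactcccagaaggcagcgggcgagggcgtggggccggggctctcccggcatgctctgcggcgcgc

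The window of *Mki67* held 3 CCAAT letters and 2 of the second motif, that of *Top2a* 6 and 2, that of *Ube2c* 6 and 1, and that of *Birc5* none of either in these exact forms. CCAAT on either strand occurred in 37.9% of the 27025 promoters in the table, in 24 of 31 matched promoters of the S phase list (77.4%), in 34 of 43 of the G2 and M phase list (79.1%) and in 29 of 40 of the secretory list (72.5%), but in 7 of 24 of the plasma cell list (29.2%). The second motif was in 18.1% of all promoters, in 5 of 31 S phase promoters (16.1%), in 29 of 43 G2 and M phase promoters (67.4%) and in 5 of 40 secretory promoters (12.5%). Neither motif contains the other, and these matches describe the sequences only.

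The label was first checked against genes that the rule did not use. *Sdc1*, the plasma cell surface proteoglycan CD138, was detected in 60 of 62 WT members (96.8%) and 292 of 313 *Postn*-DTR members (93.3%), against 6.86% and 1.80% of T cells (*Cd3e*+ *Cd3d*+ cells without *Cd79a* or *Mzb1*) and 0 of 187 and 500 mature neutrophils (up to 1.60% and 0.600% with a UMI allowed). The neutrophils were likewise defined without *Cd79a* or *Mzb1*. As *Mzb1* is a gene of the rule, cells with plasma cell transcripts were in part removed from both classes beforehand. *Prdm1*, encoding the transcription factor Blimp-1, was found in 93.5% and 79.9% of the members, and *Irf4*, which directs plasma cell differentiation with it, in 98.4% and 96.8%, against 6.93% and 8.76% of T cells. Median depth was 43816.5 and 30552 UMIs in the members and 4837.5 and 4610 in T cells and 9405 and 3490.5 in neutrophils, so these shares were not taken at equal depth and a 0 in the shallower cells limits only cells with a UMI. *Pax5*, the transcription factor that holds the B cell program, was found in 11 of 62 WT members (17.7%) and 11 of 313 *Postn*-DTR members (3.51%), against 75.7% and 35.6% of the cycling B cells outside the gate (cells with *Ms4a1* and *Cd79a* and at least 2 of the cycle genes, 152 WT and 59 *Postn*-DTR). *Postn* itself had no UMI in 62 or 313 members (up to 4.84% and 0.958% allowed).

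The members were of different kinds with respect to the cell cycle. All 4 cycle genes were found in 38 of 62 WT members (61.3%, 48.1 to 73.4, exact Clopper-Pearson) and 167 of 313 *Postn*-DTR members (53.4%, 47.7 to 59.0), and exactly 2 in 16 (25.8%) and 116 (37.1%). *Cdk1*, the kinase that drives entry into mitosis, was not part of the rule. It was detected in 35 of 38 WT cells and in 160 of 167 *Postn*-DTR cells with all 4 cycle genes (92.1% and 95.8%), but in 0 of 16 (up to 18.8% allowed) and 8 of 116 (6.90%) with exactly 2. Other gate cells gave 1.51% and 1.56%. *Ccnb1*, encoding the mitotic cyclin B1, was found in 84.2% and 83.8% of the cells with all 4 cycle genes, in 1 of 16 and 9 of 116 with exactly 2, and in 1.51% and 1.56% of other gate cells.

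Summed over a list of 43 genes of DNA replication (S phase list), cells with 0, 1, 2, 3 and 4 cycle genes had medians of 1.90, 2.06, 2.87, 30.9 and 23.6 UMIs per 10000 in WT, and 2.05, 2.19, 2.53, 8.13 and 15.2 in *Postn*-DTR. Over 51 genes of G2 and mitosis, which likewise left out the rule's 4 genes, the medians were 2.39, 2.52, 4.39, 15.1 and 55.5 in WT and 2.39, 2.59, 3.85, 18.6 and 54.9 in *Postn*-DTR. Cells with exactly 2 cycle genes thus stood near the gate cells with none on both lists, and for these 16 and 116 cells the data do not bear out the word cycling. Their pair was mostly *Mki67* with *Top2a* (8 of 16 and 75 of 116), and 6 WT and 51 *Postn*-DTR members held exactly 2 UMIs of the 4 genes in all. *Mki67*, the nuclear protein Ki-67, was by itself a weak divider, since 33.3% of the other gate cells in WT and 29.2% in *Postn*-DTR had a UMI, against 6.36% and 11.6% of T cells and 21.9% and 8.4% of mature neutrophils. Counts are therefore also given for the cells with all 4 cycle genes.

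**Figure D1:**
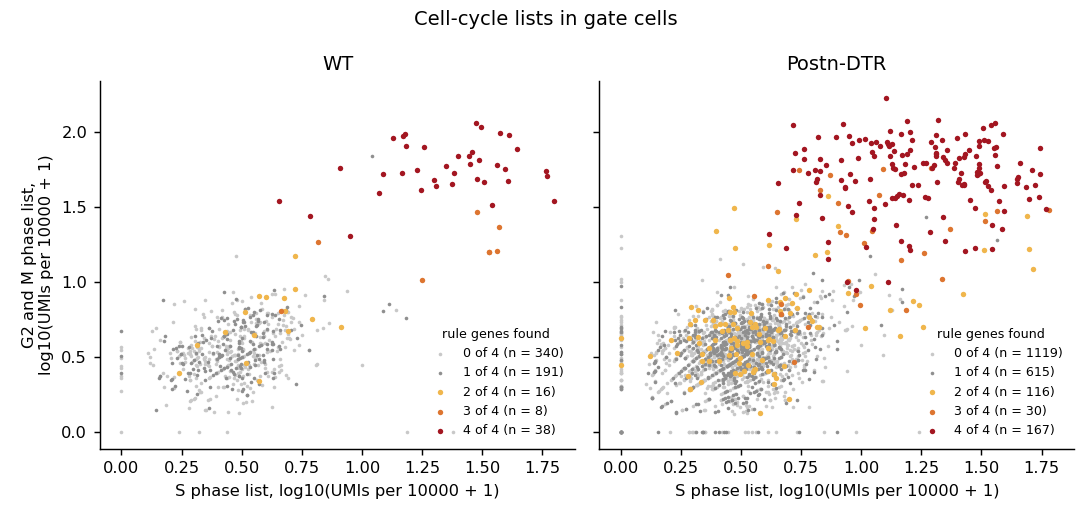
Each point is 1 gate cell of WT (left) or *Postn*-DTR (right). The horizontal axis is the summed S phase list and the vertical axis the summed G2 and M phase list, both as log10 of (UMIs per 10000 + 1), and colours give the number of rule genes found. Cells with 4 of 4 (38 and 167) lie at the upper right, whereas most cells with 2 of 4 (16 and 116) lie among the gate cells with 0 or 1.

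At the edge of the *Jchain* condition, 8 WT and 18 *Postn*-DTR members had 50 to 60 *Jchain* UMIs per 10000, with median G2 and M phase levels of 94.2 and 49.0 UMIs per 10000. Just outside, with 40 to 50, were 4 and 20 cells, with 65.8 and 56.9. The members nearest the threshold resembled the cells just beyond it on this list.

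Members held more UMIs than other gate cells, and the excess lay outside the immunoglobulin genes. The median number of UMIs outside immunoglobulin genes was 26652.5 in WT members and 18703 in *Postn*-DTR members, against 11660 and 10300 in other gate cells. Immunoglobulin UMIs were 12576 and 11753 in members and 16544 and 12685.5 in other gate cells. Immunoglobulin genes accordingly took a median of 34.3% and 38.9% of the UMIs of members and 57.7% and 54.8% of those of other gate cells. Detecting at least 2 cycle genes is easier in a deep cell, so the call was repeated after each gate cell was thinned to 2000 UMIs outside immunoglobulin genes. The 36 WT and 155 *Postn*-DTR cells still called held medians of 27584.5 and 21235 such UMIs before thinning, against 11836 and 10742 in those not called. The mitochondrial share was low in members, with medians of 1.11% and 0.897%.

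**Figure D2:**
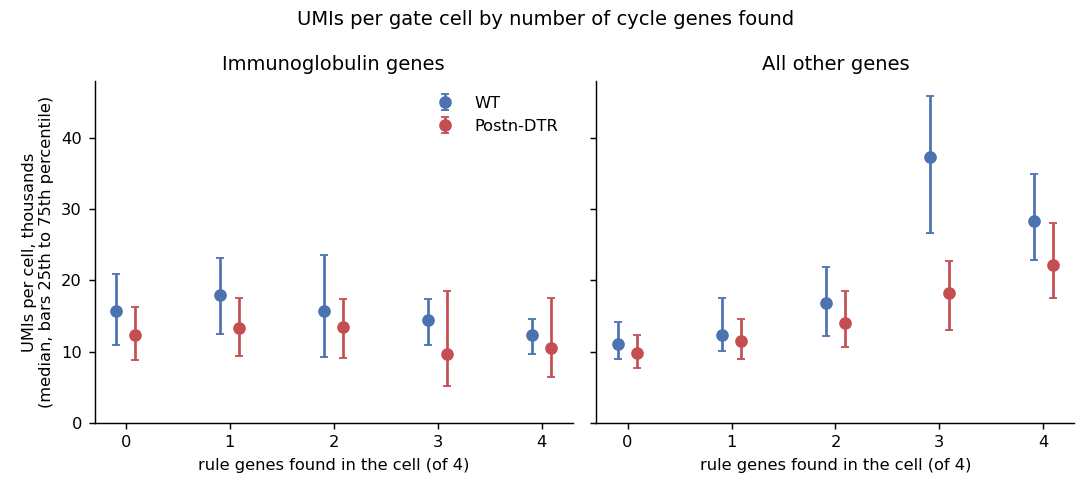
UMIs per gate cell (units of 1000 on the axis, medians with bars from the 25th to the 75th percentile) in immunoglobulin genes (left) and in all other genes (right), by the number of rule genes found. With all 4 cycle genes the median outside immunoglobulin genes was 28298.5 in WT and 22146 in *Postn*-DTR, against 11019.5 and 9830 with none, while immunoglobulin UMIs were 12355.5 and 10570 against 15710 and 12338.

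Cycling plasmablasts as selected by the rule took a larger share of the *Postn*-DTR library than of the WT library. They were 0.714% of WT cells (62 of 8680, 0.548 to 0.915) and 5.46% of *Postn*-DTR cells (313 of 5734, 4.88 to 6.08), a ratio of 7.64 (5.83 to 10.0, approximate Katz interval). Both counts include the members with exactly 2 cycle genes (16 and 116), for which the data do not bear out the word cycling. Most of this ratio was that of all gate cells, which were 6.83% of WT and 35.7% of *Postn*-DTR cells, a ratio of 5.23 (4.80 to 5.69). Shares of a library are relative, so a higher share of these cells and a lower number of other cells cannot be told apart here.

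Within the gate, members were 10.5% of WT gate cells (62 of 593, 8.11 to 13.2) and 15.3% of *Postn*-DTR gate cells (313 of 2047, 13.8 to 16.9), a ratio of 1.46 (1.13 to 1.89). The ratio was smaller under stricter calls. With all 4 cycle genes it was 1.27 (6.41% and 8.16%, 0.906 to 1.79). Thinned to 2000 UMIs outside immunoglobulin genes it was 1.25 (36 of 587, 6.13%, and 155 of 2014, 7.70%, 0.884 to 1.78, with 6 and 33 shallower cells left out). Thinned to 5000 UMIs in all it was 1.29 (40 of 584 and 177 of 2005, 0.926 to 1.79, with 9 and 42 left out). Among all cells with at least 2 cycle genes, members accounted for 62 of 719 WT cells (8.62%, 6.68 to 10.9) and for 313 of 772 *Postn*-DTR cells (40.5%, 37.1 to 44.1). Of these, 16 and 116 had exactly 2 cycle genes, and no stricter or thinned value of this share is given. Other gate cells had median depths of 28734 and 23268 UMIs, against 4837.5 and 4610 in T cells. At least 2 cycle genes were therefore easier to find in gate cells than in T cells. Cycling B cells outside the gate took a smaller share of the *Postn*-DTR library, with 1.75% of WT and 1.03% of *Postn*-DTR cells, a ratio of 0.588 (0.436 to 0.792). These cells were not alike in the libraries. Their median immunoglobulin share was 1.44% in WT and 11.3% in *Postn*-DTR, and their median *Jchain* level 0.309 and 10.5 UMIs per 10000. The ratio therefore does not compare like cells.

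The share of members was then read by V segment. The leading heavy and light chain V segments of each gate cell were read from the UMIs, and the pairs with at least 50 gate cells in both libraries together were compared, a comparison chosen after values had been seen. The reference sequences of 3 heavy chain V segments are given because the results turn on them. Each is the last 300 bases of the V exon (GENCODE, GRCm38), and the capitals in *Ighv1-26* mark the 63 bases that differ from *Ighv1-11*.

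Ighv1-11, chr12:114612243-114612542, minus strand: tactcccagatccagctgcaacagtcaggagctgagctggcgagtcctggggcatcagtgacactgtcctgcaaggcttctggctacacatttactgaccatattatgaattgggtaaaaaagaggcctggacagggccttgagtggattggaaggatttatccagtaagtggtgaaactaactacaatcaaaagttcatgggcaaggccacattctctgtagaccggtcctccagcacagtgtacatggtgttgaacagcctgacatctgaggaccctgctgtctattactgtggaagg
Ighv1-26, chr12:114788372-114788671, minus strand: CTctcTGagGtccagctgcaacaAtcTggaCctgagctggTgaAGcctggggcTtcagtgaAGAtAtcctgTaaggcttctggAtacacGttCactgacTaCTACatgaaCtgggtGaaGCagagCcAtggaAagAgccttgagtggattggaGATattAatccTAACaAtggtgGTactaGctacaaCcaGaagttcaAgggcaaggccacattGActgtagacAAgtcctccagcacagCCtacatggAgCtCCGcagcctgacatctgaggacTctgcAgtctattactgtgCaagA
Ighv11-2, chr12:114048241-114048540, minus strand: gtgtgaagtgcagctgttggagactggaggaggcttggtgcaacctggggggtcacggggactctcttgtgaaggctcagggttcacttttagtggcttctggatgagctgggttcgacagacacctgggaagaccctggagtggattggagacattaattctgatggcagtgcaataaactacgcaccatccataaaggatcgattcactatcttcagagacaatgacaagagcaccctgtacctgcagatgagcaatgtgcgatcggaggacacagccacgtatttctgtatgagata

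*Ighv1-26* was 79.8% identical to *Ighv1-11* over the exon alignment and *Ighv11-2* 59.3%. *Ighv1* segments resemble each other, so reads of nearly identical segments may have been split between them, and the calls name the leading segment and not a clone. *Ighv11-2* with *Igkv14-126* and *Ighv12-3* with *Igkv4-91* are known as receptors of B1 cells that bind phosphatidylcholine.

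Gate cells led by *Ighv1-11* and *Igkv8-16* made up 142 of the 593 WT gate cells (23.9%) and 893 of the 2047 *Postn*-DTR ones (43.6%). Of these, 10 were cycling plasmablasts in WT (7.04%, 3.43 to 12.6) and 174 in *Postn*-DTR (19.5%, 16.9 to 22.2), a ratio of 2.77 (1.5 to 5.10). With all 4 cycle genes the shares were 3.52% and 11.8% (ratio 3.34, 1.39 to 8.05), and after thinning 3.6% (5 of 139) and 11.9% (103 of 869; ratio 3.30, 1.37 to 7.94). The *Postn*-DTR share was thus above the WT share under each of the 3 calls, and the pair made up 55.6% of *Postn*-DTR members against 16.1% of WT members.

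Gate cells led by *Ighv11-2* and *Igkv14-126* were equally common in both libraries (34.1% and 32.8%). WT had 13 members among 202 of these cells (6.44%) and *Postn*-DTR 51 among 671 (7.60%), a ratio of 1.18 (0.656 to 2.13). After thinning the order was the reverse, with 9 of 200 (4.50%) and 13 of 666 (1.95%), a ratio of 0.434 (0.188 to 1.0), and with all 4 cycle genes the ratio was 0.482. Set against each other within *Postn*-DTR, the share in *Ighv1-11*/*Igkv8-16* cells was 2.56 times (1.91 to 3.45) that in *Ighv11-2*/*Igkv14-126* cells, 4.93 times with all 4 cycle genes and 6.07 times (3.44 to 10.7) after thinning. The same ratio in WT was 1.09 (0.494 to 2.43), and 0.799 after thinning. Whether the ratio of *Postn*-DTR to WT differed between the pairs was not tested.

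The remaining pairs were smaller. *Ighv12-3* with *Igkv4-91* had 5 members of 26 gate cells in WT and 8 of 56 in *Postn*-DTR, *Ighv1-55* with *Igkv12-89* 4 of 34 and 5 of 29, and all other pairs together 29 of 179 (16.2%) and 46 of 289 (15.9%). *Ighv1-11* with *Igkv14-126* had 1 of 10 and 10 of 50, but in none of its gate cells did the leading segments hold 80% of the V UMIs. These cells were also deep, with median UMIs of 55682.5 and 44428.5 against 30325.5 and 21885 for *Ighv1-11*/*Igkv8-16* cells. Scrublet called 4 of the 50 as doublets and 0 of the 10, which left 10 members among 46. *Ighv1-26* with *Igkv9-120* led no WT gate cell (0 of 593, which allows up to 0.506%) and 59 *Postn*-DTR gate cells, of which 19 were members (32.2%, 20.6 to 45.6), 7 with all 4 cycle genes, and 8 after thinning. The members held 28 distinct pairs in WT and 40 in *Postn*-DTR, of which 22 and 30 were held by 1 member each.

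**Figure D3:**
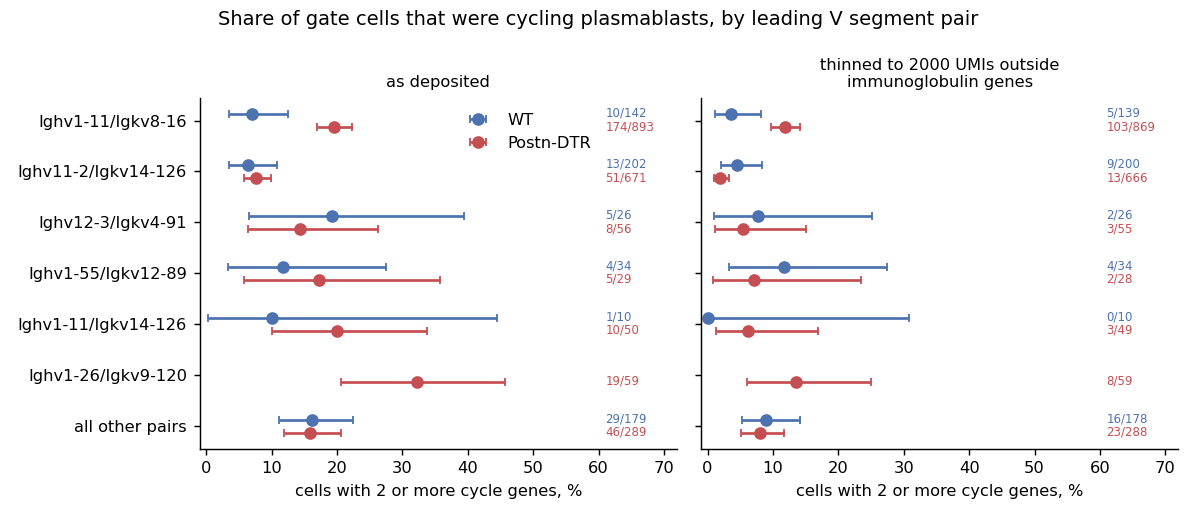
Share of gate cells (%, horizontal axis) that met the rule, by leading V segment pair (rows), as deposited (left) and after thinning to 2000 UMIs outside immunoglobulin genes (right). Points are shares of WT (blue) and *Postn*-DTR (red), bars are exact Clopper-Pearson 95% intervals and the figures at the right are cells over gate cells. *Ighv1-11*/*Igkv8-16* stands at 19.5% in *Postn*-DTR and 7.04% in WT, and at 11.9% and 3.6% after thinning.

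IgM was the leading heavy chain class of most members. It led in 47 of 62 WT members (75.8%, 63.3 to 85.8) and 263 of 313 *Postn*-DTR members (84.0%, 79.5 to 87.9), against 86.1% and 89.2% of other gate cells. IgA, the class that is carried to mucosal surfaces, led in 7 WT members (11.3%, 4.66 to 21.9) and 5 *Postn*-DTR members (1.60%), against 2.26% and 0.288% of other gate cells. IgG1 led in 1 WT and 20 *Postn*-DTR members (6.39%) and in 0 of 531 and 41 of 1734 other gate cells (2.36%). IgG3 led in 5 and 19 members (8.06% and 6.07%) and in 10.9% and 7.55% of other gate cells. Among cells with all 4 cycle genes, IgM led in 84.2% of 38 and 87.4% of 167, IgA in 2 (5.26%, 0.644 to 17.7) and 3 (1.80%), IgG1 in 1 and 7 (4.19% of *Postn*-DTR), and IgG3 in 2 and 8.

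IgG3 and IgG1 members mostly shared 1 V pair each, whereas IgA members did not. All 5 IgG3 members of WT and 17 of 19 of *Postn*-DTR carried *Ighv1-11*/*Igkv8-16*, whose gate cells were IgM in 85 of 142 and 749 of 893 and otherwise mostly IgG3. Of the 20 IgG1 members of *Postn*-DTR, 19 carried *Ighv1-26*/*Igkv9-120*, and 58 of the 59 gate cells with that pair were IgG1. The 7 IgA members of WT carried 7 different pairs, and the 5 of *Postn*-DTR carried 4. Within classes, members were 47 of 504 IgM gate cells in WT (9.33%) and 263 of 1809 in *Postn*-DTR (14.5%), 7 of 19 and 5 of 10 IgA cells, and 20 of 61 IgG1 cells of *Postn*-DTR. After thinning, 1 of 19 and 3 of 10 IgA cells and 8 of 61 IgG1 cells remained.

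**Figure D4:**
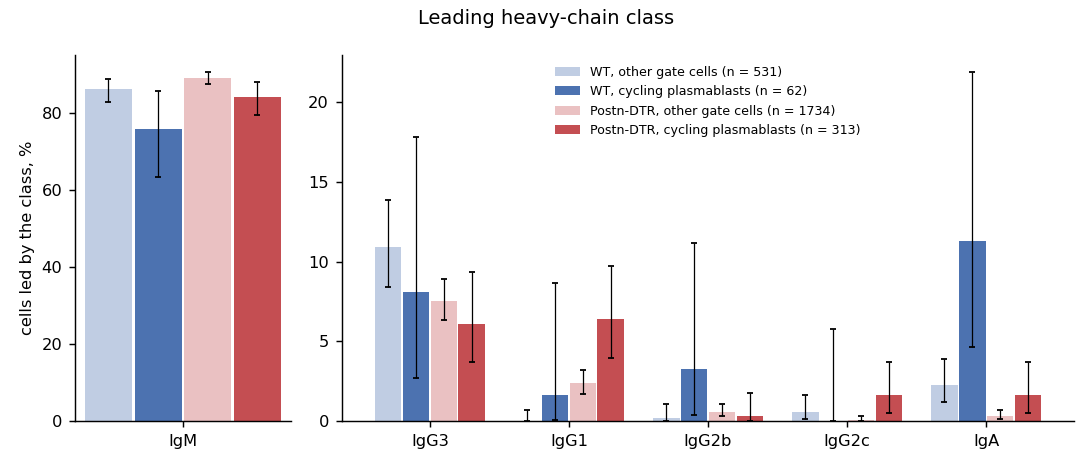
Share of cells (%) led by each heavy chain class, IgM at the left and the switched classes on their own scale at the right, in other gate cells (pale) and cycling plasmablasts (dark) of WT (blue) and *Postn*-DTR (red), with exact Clopper-Pearson 95% intervals. IgA reaches 11.3% of WT members and IgG1 6.39% of *Postn*-DTR members, against 5.26% and 4.19% among the cells with all 4 cycle genes, which are not drawn.

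Members were then set against the other gate cells of their own library. Since the cycle genes chose the members, this is a description. Levels are means over cells in UMIs per 10000, and differences are log2 ratios of these means with 0.1 added to each, among genes with a mean of at least 0.5 in 1 of the groups. Of 2049 genes, 179 (8.74%) were at least 2-fold higher in members in both libraries and 1 (0.0488%) at least 2-fold lower. The higher genes included 6 of 8 compared neutrophil genes (medians 2.88 and 1.71) and the 1 compared stromal gene, *Dcn* (2.25 and 1.21). Without cells that held other-lineage markers, 176 of 2001 genes were higher. No gene of either list was left to compare, but the same lists chose the cells removed, so that outcome was set by the removal. Because members hold a smaller share of immunoglobulin UMIs, the median of all genes was 0.69 in WT and 0.45 in *Postn*-DTR on this scale, and 0.15 and 0.07 when cells were scaled to UMIs outside immunoglobulin genes (150 of 3253 higher, 4.61%, and 8 lower, 0.246%).

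Of the 51 listed genes of G2 and M phase 26 reached the level for comparison, and of the 43 of S phase 15. Genes near 0 in other gate cells could reach it only through the members, so a count past 2-fold among them was nearly fixed and is not given. The medians come from the same selected genes, so their size was partly set by that choice. They were 2.92 and 2.54 for G2 and M phase and 2.32 and 1.71 for S phase. *Ube2c*, the ubiquitin-conjugating enzyme of the anaphase-promoting complex and 1 of the rule's genes, had the highest ratios by the smaller of both libraries (5.24 and 5.36). Of genes outside the rule, *Stmn1*, which destabilizes microtubules, went from 0.0359 in other gate cells to 3.42 in members in WT and from 0.0152 to 1.69 in *Postn*-DTR (4.70 and 3.96). *Pclaf*, a PCNA-binding replication factor, differed by 4.94 and 3.76, *Ccna2* (cyclin A2) by 3.69 and 3.72, and *Rrm2*, a subunit of ribonucleotide reductase, by 3.94 and 3.62. *Hmgn2*, a nucleosome-binding protein, differed by 3.75 and 3.63. The list of cell cycle regulators, with the G1 cyclins and inhibitors, gave 0 of 6 past 2-fold in both libraries, where *Cdk4*, the kinase of G1, differed by 1.32 and 0.69. On the scale without immunoglobulin genes, with the same kind of selection, the S phase and G2 and M phase medians were 2.06 and 1.53, and 2.93 and 2.77.

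Genes of growth were above the shift of all genes by less. Over all genes 8.74% were past 2-fold higher, and apart from glycolysis the counts in this paragraph were near or below that share. Of 23 genes of ribosome biogenesis, *Ran* (2.37 and 1.98) and *Ranbp1* (1.76 and 1.21), of nuclear transport, passed 2-fold, and the list's medians were 1.16 and 0.66 (0.58 and 0.25 without immunoglobulin genes). On the latter scale 1 of its 27 compared genes was past 2-fold higher and 1 lower. In glycolysis, *Pgk1* (1.65 and 1.18), *Eno1* (1.59 and 1.04) and *Gapdh* (1.37 and 1.0) were the 3 of 8 past 2-fold, and 0 of 9 were on the other scale. Of 16 genes of oxidative phosphorylation, *Cycs*, cytochrome c, passed 2-fold (1.41 and 1.03). Of 47 genes of the secretory pathway, *Ssr1* (1.11 and 1.03) and *Ssr2* (1.74 and 1.32), subunits of the translocon-associated complex, passed. The secretory medians were 0.50 and 0.43, below and near the shift of all genes, and -0.05 and 0.07 without immunoglobulin genes, where the WT direction turned. The plasma cell program stood below the shift, with medians of 0.12 and 0.09 over 20 genes and -0.34 and -0.24 over 24 without immunoglobulin genes, so its direction also turned with the scale. *Slpi*, a secreted protease inhibitor, was its 1 gene past 2-fold (2.98 and 1.30). B cell identity genes gave 0 of 14 past 2-fold in both libraries, with medians of 0.57 and 0.16.

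Few genes were lower in members. *Gm43218*, an RNA of unassigned function, was the 1 gene past 2-fold in both libraries, at 0.453 in other gate cells and 0.121 in members in WT and at 2.31 and 0.752 in *Postn*-DTR (-1.32 and -1.50). *Ighm* was 501 and 256 in WT and 484 and 358 in *Postn*-DTR (-0.97 and -0.44), and *Igkc* differed by -0.61 and -0.28. *Slc3a2*, the heavy subunit of amino acid transporters, differed by -1.32 and -0.81, and *Cd83*, an activation marker of B cells, by -1.09 and -0.64. *Tsc22d3*, a glucocorticoid-induced gene, differed by -0.52 and -0.47. All of these were lower still without immunoglobulin genes, for example *Slc3a2* at -1.79 and -1.15.

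The last comparison set the members of *Postn*-DTR against those of WT. Of 2028 genes, 33 (1.63%) were at least 2-fold higher in *Postn*-DTR members and 83 (4.09%) at least 2-fold lower. The median of all genes was -0.12, and -0.04 without immunoglobulin genes, where 53 of 3080 (1.72%) were higher and 100 (3.25%) lower. In other gate cells 36 were higher and 31 lower, with a median of 0.12. Neither contrast has replicates, and the WT members numbered 62.

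Genes of the cell cycle did not pass 2-fold as lists. None of 26 genes of G2 and M phase and none of 15 of S phase was past 2-fold in either direction. Over all genes 1.63% were higher and 4.09% lower, so these counts are close to that share. The G2 and M phase median was -0.15 (19 below 0), and -0.01 in cells with all 4 cycle genes. The S phase median was -0.57 (13 below 0), and -0.49 in cells with all 4 cycle genes, with *Mcm5* and *Mcm3*, of the replicative helicase, at 0.721 and 0.423 (-0.65) and at 0.707 and 0.399 (-0.69). *Cdc20*, the activator of the anaphase-promoting complex, was 0.976 in WT and 1.55 in *Postn*-DTR (0.61). The histone and chromatin list, which also holds tubulin genes and *Stmn1*, gave 2 of 17 past 2-fold lower, the histone gene *Hist1h4d* (0.540 and 0.203, -1.08) and *Tuba1b*, an alpha tubulin (3.02 and 1.14, -1.33), with a median of -0.58.

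By the naming rule, *Sbno2*, a transcriptional coregulator known from the response to interleukin-10, stood highest in *Postn*-DTR members. It was 0.194 UMIs per 10000 in WT, found in 27 of 62 members, and 1.98 in *Postn*-DTR, found in 224 of 313 (2.82), with 3.64 in other gate cells. *Pik3cg*, the catalytic gamma subunit of phosphoinositide 3-kinase, was 0.434 and 1.84 (1.86, other gate cells 1.80), with a 10th to 90th percentile range over cells of 0 to 1.01 among WT members and 0.391 to 4.02 among *Postn*-DTR members. The ranges of single cells overlapped for both genes. *Gm43218* was 0.121 and 0.752 (1.95), *Zcwpw1*, a reader of histone methylation, 0.272 and 0.959 (1.51), and *Trp53i11* 0.753 and 2.20 (1.43). *Neat1*, the long RNA of nuclear paraspeckles, was 0.672 and 1.93 (1.40), *Mef2b*, a transcription factor of germinal center B cells, 0.273 and 0.864 (1.37), and *Selenom*, a selenoprotein of the endoplasmic reticulum, 0.686 and 1.89 (1.34). Other gate cells of *Postn*-DTR also had more *Gm43218* (values above), *Neat1* (0.827 in WT and 1.59) and *Mef2b* (0.169 and 0.433), so these differences were not particular to members. *Ggta1*, a glycosyltransferase, was 0.174 and 0.667 (1.49).

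*Il10*, which encodes an inhibitory cytokine, was found in 19 of 62 WT members (30.6%) and 109 of 313 *Postn*-DTR members (34.8%). Its mean was 0.216 and 0.716 (1.37), the median cell had none in either library, and the difference was 0.30 in cells with all 4 cycle genes. The higher mean thus came with a similar share of positive cells, but at unequal depth (medians of 43816.5 and 30552 UMIs). In other gate cells the *Il10* mean was 0.301 in WT and 0.792 in *Postn*-DTR, with 26.6% and 36.6% of cells positive. *Slc7a5*, the light chain of the large neutral amino acid transporter, was 0.668 and 1.68 (1.22), and 0.759 and 1.62 in other gate cells. It was the 1 of 23 ribosome biogenesis and Myc target genes past 2-fold, against 1.63% of all genes higher, so this count says little about the list. In other gate cells 2 of the 23 were past 2-fold higher.

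By the same rule *Lcp1*, encoding the actin-bundling protein L-plastin, stood lowest in *Postn*-DTR members, at 1.63 in WT and 0.348 in *Postn*-DTR (-1.95, other gate cells -1.40). *Actg1*, gamma actin, was 9.04 and 2.50 (-1.82, other gate cells -1.43), and *Tmsb4x*, which binds actin monomers, 24.2 and 7.30 (-1.71, other gate cells -1.22). *Tmsb4x* had medians over cells of 19.4 and 3.29, with 10th to 90th percentile ranges of 4.48 to 44 among WT members and 0.352 to 14.6 among *Postn*-DTR members, which overlapped. *Ptpn6*, the phosphatase SHP-1 that restrains B cell receptor signals, was 0.971 and 0.203 (-1.82), *Nr4a1*, induced by antigen receptor signals, 0.833 and 0.176 (-1.76), and *Laptm5*, a lysosomal protein of blood cells, 1.29 and 0.332 (-1.68). *Basp1*, a membrane-bound protein (-1.78), *Chst1*, a sulfotransferase (-1.78), *Ly86*, the MD-1 partner of the receptor RP105 (-1.78), and *H2-Aa* (-1.77) completed the 10.

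B cell identity genes were lower in *Postn*-DTR members as a group. Of 14 compared, 9 were past 2-fold lower and 0 higher (4.09% and 1.63% of all genes), and the median was -1.19, against -0.12 for all genes. A gene was compared if its mean reached 0.5 in the members of 1 library. One that reached it only in WT, such as *Ms4a1*, could count only as lower, so count and median were partly set by that choice. In other gate cells 0 of the 14 were past 2-fold and their median was -0.51, but the 14 were chosen on levels in members. Without immunoglobulin genes 9 of 17 were past 2-fold lower, with a median of -1.05. *H2-Aa*, *H2-Ab1* and *H2-Eb1*, the chains of MHC class II, were 7.55, 7.52 and 6.29 in WT members and 2.15, 3.31 and 2.24 in *Postn*-DTR members (-1.77, -1.16 and -1.45). *Ms4a1*, encoding CD20, was 1.34 and 0.462 (-1.36) and was found in 82.3% and 50.2% of members. In other gate cells *Ms4a1* was also lower in *Postn*-DTR, at 0.740 and 0.383, and was found in 67.4% and 42.7% of cells. Depth was unequal, with medians of 43816.5 and 30552 UMIs in members and 28734 and 23268 in other gate cells. Both *Cd37*, a tetraspanin, and *Swap70*, an adaptor of B cells, differed by -1.25. *Cd79a*, a signalling chain of the B cell receptor, was 6.26 and 6.11 (-0.03), and *Blnk*, its adaptor, was 1.44 and 2.30 (0.64). The MHC difference was uneven over cells. The median of *H2-Aa* was 2.75 in WT and 1.01 in *Postn*-DTR, whereas the 90th percentiles were 24.9 and 5.29.

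The difference in means was smaller for MHC class II genes and *Ms4a1* within 1 V pair, but single cells gave a mixed picture. Members with *Ighv1-11*/*Igkv8-16* only numbered 10 in WT and 174 in *Postn*-DTR. Their difference in means was -0.22 for *H2-Aa*, -0.20 for *H2-Ab1*, 0.03 for *H2-Eb1* and -0.51 for *Ms4a1*. The *H2-Aa* median was still higher in WT (2.41 and 1.07), and *Ms4a1* was found in 90% and 42.0% of these cells. Gate cells with this pair had median UMIs of 30325.5 and 21885, so the shares with *Ms4a1* were not taken at equal depth. The medians of *H2-Ab1* (1.65 and 2.44) and *H2-Eb1* (1.001 and 1.18) were higher in *Postn*-DTR. Of the 10 lowest genes named above, 4 stayed past 2-fold in the same cells, *Laptm5* (-1.79), *Actg1* (-1.69), *Tmsb4x* (-1.62) and *Nr4a1* (-1.13). The other 6 did not, among them *Lcp1* (-0.97), *Ptpn6* (-0.91), *Basp1* (-0.84), *Chst1* (-0.74) and *Ly86* (-0.32). Of the 10 highest, *Gm43218* (0.98) alone fell short of 2-fold, and *Sbno2* was at 2.97 and *Pik3cg* at 1.82. With 10 WT cells these values rest on few cells, and whether the mix of V pairs sets the B cell difference was not tested.

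A list of 6 genes was followed because the study names them. The study chose *Rps21*, *Tmsb10*, *Ly6d* and *Cd52* on T cells and B2 B cells of these libraries, a different selection of cells. For these genes the list is thus not independent evidence of a direction. Of 5 compared, 3 were past 2-fold lower in *Postn*-DTR members and 0 higher, with a median of -1.07. Over all genes 4.09% were lower and 1.63% higher, with a median of -0.12. *Tmsb10*, an actin-monomer binding protein, was 13.6 and 4.39 (-1.61), *Cd52*, a small surface glycoprotein of lymphocytes, 13.0 and 4.22 (-1.60), and *Ly6d*, a surface marker of early B cells, 11.6 and 5.48 (-1.07). *Rps21*, a ribosomal protein, was 7.15 and 4.51 (-0.65), and *Cxcr4*, the receptor for CXCL12, was 0.674 and 0.685 (0.02). Other gate cells differed alike for the first 2 genes, with *Tmsb10* at 5.37 and 1.82 (-1.51) and *Cd52* at 8.31 and 2.75 (-1.56), and 2 of the 5 were past 2-fold lower there, with a median of -0.82. The share of cells with *Aldh1a2* was 9 of 62 and 32 of 313, below the level compared.

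Against 1.63% of all genes past 2-fold higher and 4.09% lower, the secretory program had none among its 47 compared genes. The median was 0.25 (11 below 0), with 0.35 in other gate cells, against -0.12 and 0.12 over all genes. *Hspa5*, the chaperone BiP, was 17.6 in WT and 28.1 in *Postn*-DTR members (0.67), *Herpud1*, of the degradation pathway of the endoplasmic reticulum, 5.86 and 10.4 (0.81), *Creld2* 11.1 and 18.5 (0.72), and *Hsp90b1*, the chaperone of the same compartment, 62.8 and 51.4 (-0.29). In the plasma cell program 0 of 19 genes passed (median -0.18), with *Irf4* at 2.76 and 3.30 (0.25) and *Sdc1* at 1.72 and 1.34 (-0.34). The medians of 8 glycolysis genes (-0.25) and of 16 oxidative phosphorylation genes (-0.10) lay near that of all genes, and 0 of either list passed. The lists for survival and death (0 of 5), cell cycle regulators (0 of 6) and glucocorticoid induced genes (0 of 2) likewise gave none, the B1 list gave *Zcwpw1* above and *Ahnak* (-1.01) below of 6, and the germinal center list *Mef2b* above and *Basp1* below of 2. In lists this short a count of 0 is close to the share of all genes and says little about the list.

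Immunoglobulin constant genes differed by class, and the switched classes rested on few cells. *Ighm* was 256 in WT and 358 in *Postn*-DTR members (0.48), and *Igha* 37.9 and 7.14 (-2.39), or 0.31 among IgM-led members only. *Ighg1* was 4.96 and 20.2 (2.01), and in WT 1019 of its 1022 UMIs lay in 1 cell.

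**Figure D5:**
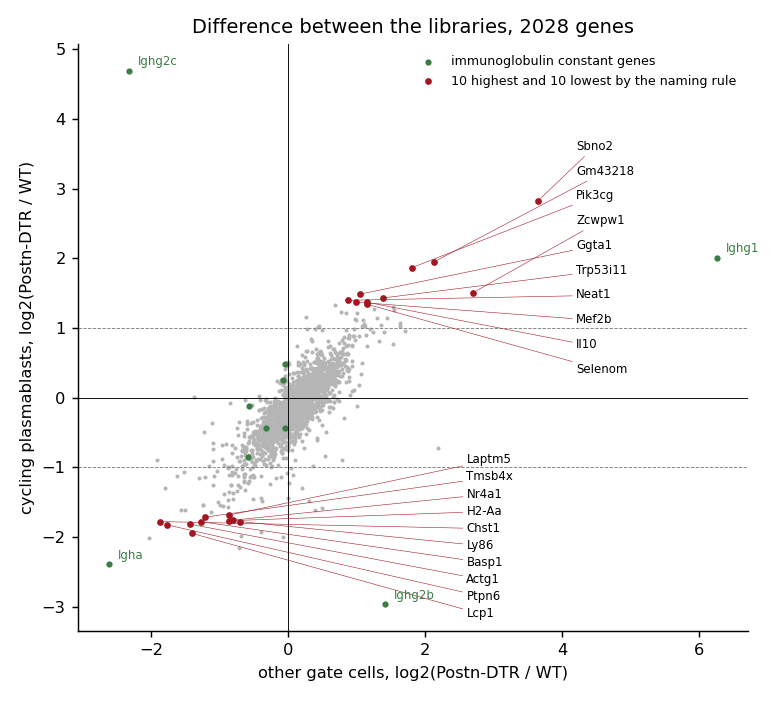
Log2 ratio of *Postn*-DTR to WT for 2028 genes in cycling plasmablasts (vertical axis) and in other gate cells (horizontal axis). Dashed lines mark a 2-fold difference in members, red points are the 10 highest and 10 lowest genes by the naming rule, which leaves out genes with over 20% of their UMIs in 1 cell, and green points are immunoglobulin constant genes. *Sbno2* (2.82 and 3.64) lies at the upper right, and both axes share no cells but share the libraries.

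Markers of other lineages were present in some members. At least 10 UMIs per 10000 of a T, NK, macrophage, neutrophil, dendritic, stromal or erythroid list were found in 10 of 62 WT members (16.1%) and 24 of 313 *Postn*-DTR members (7.67%), against 5.84% and 4.79% of other gate cells. The neutrophil list reached this level in 3 and 10 members, with the highest sums at 1260 and 1157 UMIs per 10000, the T cell list in 4 and 1, and the macrophage list in 4 and 8. All 5 erythroid markers were at 0 in WT members. Of 8 neutrophil genes compared between the libraries, 4 were past 2-fold lower in *Postn*-DTR members (median -1.14), against 4.09% of all genes. None was left to compare once the cells with other-lineage markers were left out, which the removal itself set, since the same list chose those cells. Without those cells the B cell identity list still gave 9 of 14 past 2-fold lower, and all genes gave 39 higher and 73 lower of 1980. Scrublet called 0 of 62 and 10 of 313 members as doublets (3.19%), against 1.12% and 1.92% of all cells.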

How the data were processed

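Single cells of the omentum of WT and *Postn*-DTR mice, 1 library per group, were profiled on the Chromium platform. The deposited values are natural log values: per cell, the natural log of 1 plus a gene's UMIs per 10000, written by the authors to 4 significant digits for 19960 genes. The submitters' processing notes name Cell Ranger 6.0.0 and the mm10 build, whereas the study's methods name an earlier Cell Ranger version. The labels name a 5′ kit and the methods a 3′ kit, which bears on the V segment calls. Values were put back on the linear scale, and dividing by each cell's smallest step recovered whole UMIs, to within 0.1 UMI, for 99.97% and 99.92% of the values. The comparison had been planned on counts. Because the files hold log values, levels are means over cells on the linear scale, with 0.1 added before the log2 ratio, and summed recovered UMIs were an alternative.

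The libraries held 8686 and 5736 barcodes, of which the limit of 200 to 7500 genes removed 6 and 2. Median depth was 5618 and 8456.5 UMIs. No barcode was shared, and 65 barcode sequences occurred in both libraries apart from the library suffix. Gene symbols were matched to GENCODE by identifier (19932 of 19960). The code was tested on simulated data. Python 3.11.15 with numpy 2.4.6, scipy 1.17.1, pandas 2.3.3, scanpy 1.11.5 (Scrublet) and matplotlib 3.10.9 was used. Doublet calls were removed only in an alternative, and the study's limit of 25% mitochondrial UMIs was used only as an alternative.

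Named genes were the genes of the gate, up to 6 members of each list by level and 3 by the highest and lowest ratio, and the 10 highest and 10 lowest of each comparison with a mean of at least 0.5 UMIs per 10000, at least 50 UMIs, found in at least 10% of members, and no more than 20% of UMIs in 1 cell. V, D and J segments were left out. Genes named outside this rule, such as *Ms4a1*, *Mcm5* and *Cdk1*, and the V pairs were chosen after their values were seen. The members and lists were chosen with earlier results of these data known.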

Additional observations from a re-analysis of the deposited data

Results flagged for a closer look

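Differences between members and other gate cells that pointed in opposite directions in the 2 libraries are given here as log2 ratios. Whether they differ between the groups was not tested. *Ighg2c* was at -4.04 in WT and 2.98 in *Postn*-DTR, *Ighg2b* at 2.98 in WT and -1.39 in *Postn*-DTR, and *Retnlg*, a neutrophil gene, at 1.83 in WT and -1.09 in *Postn*-DTR. IgG2b was the leading class of 2 WT members and 1 *Postn*-DTR member, and IgG2c of 5 *Postn*-DTR members and no WT member.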

How the results depend on the processing

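No paired analysis was possible because each group was 1 library, and for the same reason no replicate could be left out. Of 86 alternatives to the shares, counts of genes, heavy chain classes and V pair shares, 72 stayed within the error or within 1.5 times the count. The ratio of *Postn*-DTR to WT among all cells was 5.55 with at least 1 cycle gene and 11.1 against cells outside the gate, and that among gate cells was 1.06 with at least 1 cycle gene. Genes higher in *Postn*-DTR members numbered 53 without immunoglobulin genes and 54 without the filter on low values, where 177 were lower. Against other gate cells, 8 genes were lower without immunoglobulin genes, 320 were higher without the filter, and 368 were higher and 3 lower in cells with all 4 cycle genes, an alternative chosen after seeing the data. The *Postn*-DTR share of members was 11.8% with all 4 cycle genes and 11.9% after thinning for *Ighv1-11*/*Igkv8-16*, and 2.38% and 1.95% for *Ighv11-2*/*Igkv14-126*, also chosen after seeing the data. Of 280 alternative values of named genes past 2-fold, 276 kept their direction and 256 were still past 2-fold. The direction turned for *Igha* among IgM-led cells (0.31) and, without cells holding other-lineage markers, for *Ltf* (0.50), *S100a8* (0.47) and *S100a9* (0.26). The cause was not tested. Depth limits the call of members, since fewer cycle genes are found in shallow cells.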
